A study of Mus musculus with 6 samples.

Results

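The 10 genes described here make up the core of the iron and hepcidin pathway of the liver. They are the hepcidin gene *Hamp* and its paralog *Hamp2*, the transferrin receptors *Tfrc* and *Tfr2*, transferrin (*Trf*), the iron exporter ferroportin (*Slc40a1*), the ferritin subunits *Fth1* and *Ftl1*, and the hepcidin regulators *Hfe* and *Bmp6*. The genes were chosen by name, with earlier results of these data known. All 10 were measured, out of 35683 genes in the tables. The level of a gene is given in TPM, which counts transcripts corrected for their length as a share of a fixed total, summed over the transcripts of the gene. All 6 libraries were poly A RNAseq libraries of macroscopic liver tumors from 2 male CMRtdT mice, 3 tumors per mouse, and belong to a single condition. CMRtdT animals carry the *MUP-uPA* transgene, which makes hepatocytes express a protease that injures them, a *Ctnnb1* allele that loses exon 3 under Cre, and a tdTomato reporter of recombination. Both animals were on a high-fat diet from week 6 of age, were injected with AAV8-TBG-Cre at week 8, and gave their tumors 6.5 months later, when food had been withheld for some hours. The TBG promoter directs Cre to hepatocytes, so the recombined cells of a tumor descend from hepatocytes, while vessels, macrophages and blood in the excised tissue do not. Liver without a tumor was not analysed here, so the levels stand without a reference from normal tissue.

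Hepcidin is a peptide hormone that hepatocytes release into the blood. It binds ferroportin on macrophages, gut cells and hepatocytes and has it degraded, which holds iron inside those cells. Hepatocytes raise hepcidin when iron is high, through BMP ligands from endothelial cells, the co-receptor hemojuvelin, HFE and TFR2, and during inflammation, through IL-6 and STAT3. Inside cells, the iron regulatory proteins bind a hairpin in messenger RNAs, the iron-responsive element. At low iron they block translation of the ferritins and ferroportin and protect the message of *Tfrc* from decay.

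Tumor 1 of mouse 1 stood apart from the other 5 tumors, and the fold changes between the mice are therefore given with and without it. Its 10 hepatocyte markers summed to 1396 TPM against 27014 to 42256 TPM elsewhere, and all 10 had their lowest level there. Its 13 proliferation markers summed to 696 TPM against 96.3 to 110 TPM, and all 13 had their highest level there. Of all genes tested, 22.5% had their lowest and 60.9% their highest TPM in that tumor. The 10 stellate cell markers summed to 54.1 TPM there and to 35.8 to 149.6 TPM elsewhere. The totals ran from 19130532 to 27681766 estimated counts, and mitochondrial genes took 6.85% to 8.34% of the counts in mouse 1 and 12.9% to 18.4% in mouse 2. In bulk tissue, fewer cells of a type and less RNA per cell cannot be told apart.

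The members spanned more than 3 orders of magnitude, and 3 of them made up nearly all of their RNA. *Trf*, *Fth1* and *Ftl1* together took 98.1% to 98.7% of the summed TPM of the members in each tumor. The whole group came to 18835 to 26438 TPM in the 5 other tumors, which is 1.88% to 2.64% of all transcripts, and to 7357 TPM or 0.736% in tumor 1 of mouse 1. Ordered by the mean of log2(TPM + 0.1) over the 6 tumors, the genes ran *Fth1*, *Ftl1*, *Trf*, *Hamp*, *Tfr2*, *Slc40a1*, *Hfe*, *Tfrc*, *Hamp2* and *Bmp6*. *Trf* exceeded *Hamp* in 6 of 6 tumors, by 5.56 ± 1.71 on the log2 scale (SD, n = 6; exact sign-flip permutation test, two-sided, p = 0.03125, the smallest it can give, adjusted p = 0.188). None of the 9 pairs of neighbors in this order passed the adjusted threshold of 0.05, with 1 pair at an unadjusted p under 0.05. The test takes the 6 tumors as separate although they come from 2 mice, and the order was set by the same values. Without tumor 1 of mouse 1 the first genes ran *Ftl1*, *Trf*, *Fth1* and *Hamp*, with *Trf* above *Fth1* in 4 of 5 tumors, and the others kept their places. With 5 tumors the smallest p of the test is 0.0625, so no pair could pass. *Fth1*, first in the order, was above *Ftl1* in 1 of 6 tumors, tumor 1 of mouse 1, and below it in 5. The plot of the levels by tumor shows this ladder of genes, with tumor 1 of mouse 1 below the other points for 7 of them.

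**Figure D1:**
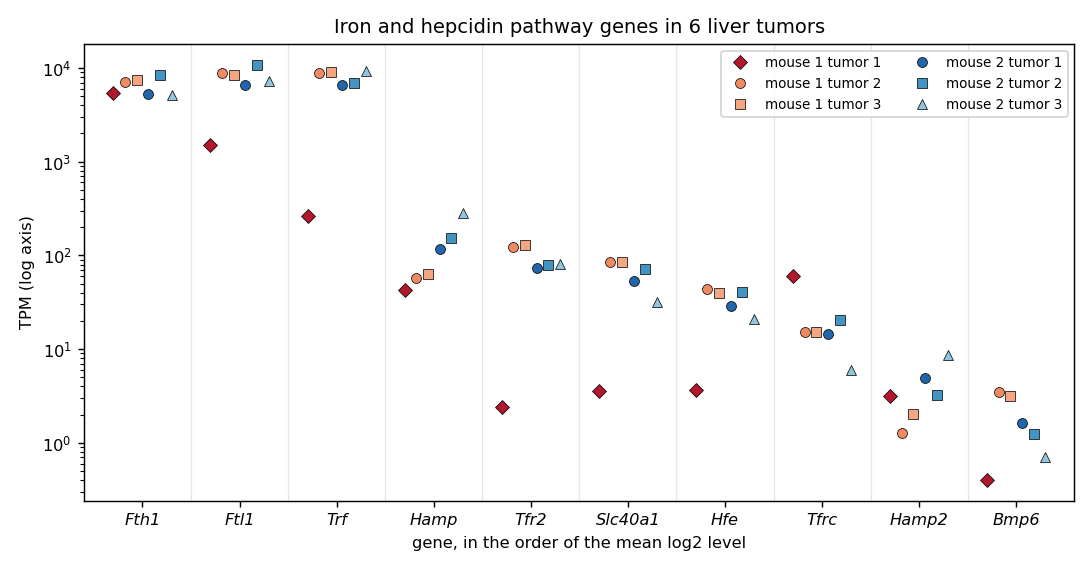
TPM of the 10 genes (log axis) in each of 6 tumors, 1 point per tumor, with mouse 1 in red and orange and mouse 2 in blue. Tumor 1 of mouse 1 (diamonds) is the lowest for *Ftl1*, *Trf*, *Hamp*, *Tfr2*, *Slc40a1*, *Hfe* and *Bmp6*, and the highest for *Tfrc*. *Hamp* and *Hamp2* are higher in each tumor of mouse 2 than in each tumor of mouse 1, as are 1.73% of genes tested. For *Hamp2* the nearest values are 3.20 TPM in mouse 1 and 3.22 TPM in mouse 2, from few reads.

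*Hamp*, which encodes hepcidin, was higher in every tumor of mouse 2 than in any tumor of mouse 1. Its level was 42.8, 57.1 and 62.8 TPM in mouse 1 and 118, 155 and 280.3 TPM in mouse 2, where the values of an animal follow the order of its tumors, 1 to 3, here and below. The tumors of mouse 1 lay close together, and tumor 3 of mouse 2 stood above the other two of its animal. These values rest on 137 to 202 estimated reads in mouse 1 and 358 to 820 in mouse 2, all assigned to the single *Hamp* transcript of the tables. The mean was 54.2 ± 10.3 TPM in mouse 1 and 184 ± 85.1 TPM in mouse 2 (SD, n = 3 each). In edgeR's quasi-likelihood test across all genes, the log2 fold change of mouse 2 over mouse 1 was 2.42 ± 0.52 (SE), and it did not pass after Benjamini-Hochberg adjustment (adjusted p = 0.412). Without tumor 1 of mouse 1 it was 2.18 ± 0.51 (edgeR, adjusted p = 0.0957), and without tumor 3 of mouse 2 it was 1.81 ± 0.42 (adjusted p = 0.902). DESeq2 called *Hamp* higher in mouse 2, with an adjusted p of 0.0059 over 6 tumors and of 0.000403 without tumor 1 of mouse 1. In that test 1.0% of all genes were called higher with 6 tumors, and 5.85% without tumor 1 of mouse 1.

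*Hamp2*, the tandem paralog of *Hamp*, followed the same order of the animals at a far lower level. Its level was 3.20, 1.28 and 2.05 TPM in mouse 1 and 4.90, 3.22 and 8.71 TPM in mouse 2. The lowest tumor of mouse 2 lay just above the highest of mouse 1 in TPM. The counts behind them were small and overlapped, with 4.0 to 11.1 estimated reads in mouse 1 and 10 to 28.1 in mouse 2. The log2 fold change was 2.12 ± 0.72 with 6 tumors (edgeR, adjusted p = 0.416) and 2.32 ± 0.75 without tumor 1 of mouse 1 (adjusted p = 0.172). It was 1.48 ± 0.73 without tumor 3 of mouse 2 (edgeR, adjusted p = 0.902). *Hamp* and *Hamp2* were the 2 of 10 members with no overlap between the animals in TPM and mouse 2 higher, an arrangement found in 1.73% of the 13268 genes tested, and in 4.5% of them when tumor 1 of mouse 1 was set aside. No member was lower in mouse 2 in that sense, while 40.6% of genes were. TPM is not on the scale of edgeR's fold changes, whose TMM scaling also adjusts for a general shift between libraries. With TMM the median log2 fold change of all genes was -0.04, and with library size alone it was -0.55. Between these settings *Hamp* went from 2.42 to 1.94 and *Fth1* from 0.63 to 0.22. With mitochondrial genes left out, the mean of *Hamp* over 6 tumors was 170 TPM in place of 119 TPM. Against tumors 2 and 3 of mouse 1 alone, 3 members (*Tfr2*, *Slc40a1* and *Bmp6*) had lower values in every tumor of mouse 2, where 56.6% of genes did. *Hamp* exceeded *Hamp2* 13.4-fold to 48.0-fold within a tumor, with the smallest ratio in tumor 1 of mouse 1. Because the 2 genes are near copies, reads of one can be assigned to the other, which leaves the level of *Hamp2* uncertain.

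The start regions of the 2 hepcidin genes are printed here because they differ in a single base at a BMP element, one through which BMP signals can reach *Hamp*. Elements farther from the start were not searched. Both genes lie on the minus strand of chromosome 7, *Hamp* at chr7:30942368-30944029 and *Hamp2* at chr7:30922372-30924181 (GRCm38.p6). The 150 bases before each start, from RefSeq, are chr7:30944030-30944179 for *Hamp* and chr7:30924182-30924331 for *Hamp2*, given on the minus strand from 5′ to 3′, with capitals for the BMP element GGCGCC or the aligned bases and for the STAT element TTCNNNGAA.
Hamp: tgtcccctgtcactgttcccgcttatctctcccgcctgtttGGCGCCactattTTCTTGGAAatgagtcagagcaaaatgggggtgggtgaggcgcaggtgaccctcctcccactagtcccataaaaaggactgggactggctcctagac
Hamp2: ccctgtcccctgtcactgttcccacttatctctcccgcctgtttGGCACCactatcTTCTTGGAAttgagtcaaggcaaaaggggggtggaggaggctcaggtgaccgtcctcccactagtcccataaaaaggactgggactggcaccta
The first capitals are the BMP element at -109 to -104 of *Hamp*, and the second are the STAT element, which both genes hold letter for letter, at -97 to -89 in *Hamp* and -94 to -86 in *Hamp2*. Relative to *Hamp*, the aligned bases of *Hamp2* carry G4A, counted from 1 at the 5′ end of the element, so that the letters GGCGCC occur in neither strand of the *Hamp2* window. Over windows of 300 bases around the start, 276 of 297 aligned bases were identical (92.93%). Of 32851 such windows in the RefSeq table, 11.9% held GGCGCC and 8.3% held TTCNNNGAA on either strand, so each match is a description and not evidence of binding. Among the other members with a window, *Tfrc* held GGCGCC. *Hfe* and *Bmp6* each held an NRF2-type element TGACNNNGC (12.4% of windows), and *Bmp6* held an E-box CACGTG (7.15%). The TCF/LEF-type element CTTTGNNC, which 17.2% of windows hold, occurred in a window of *Tfr2*. Windows of 8 members were searched, and *Slc40a1* and *Trf* were not among them.

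In tumor 1 of mouse 1, *Hamp* stood nearer to its level in the other tumors than 7 other members did. Its level there was 0.318 times the mean of the other 5 tumors, against 0.0248 times for *Tfr2*, 0.0323 times for *Trf* and at most 0.197 times for *Slc40a1*, *Hfe*, *Ftl1* and *Bmp6*. *Tfrc* lay on the other side, at 4.19 times that mean. Set against albumin, a general product of hepatocytes, *Hamp* amounted to 61.0, 3.55 and 3.78 TPM per 1000 TPM of *Alb* in mouse 1 and to 14.2, 18.2 and 21.4 in mouse 2. On this scale too the tumors of mouse 2 lay above tumors 2 and 3 of mouse 1, but tumor 1 of mouse 1 was the highest of the 6. The highest *Hamp* level, in tumor 3 of mouse 2, occurred where the sum of the acute phase genes, which the liver makes in inflammation, was highest. The 11 genes summed to 66.1, 1690 and 1666 TPM in mouse 1 and to 1389, 1515 and 2578 TPM in mouse 2. Tumors 1 and 2 of mouse 2 thus had smaller sums but more *Hamp* than tumors 2 and 3 of mouse 1. *Saa1* reached 371 TPM in tumor 3 of mouse 2 against 0.46 to 65.7 TPM elsewhere. Of the 10 with a mean of at least 1 TPM, 6 were highest in tumor 3 of mouse 2. *Crp* was not among them, at 116 TPM there and at least 129 TPM in tumors 2 and 3 of mouse 1. *Il6* was at 0 in 5 tumors, which allows up to 3 counts each, and at 0.56 TPM in tumor 1 of mouse 1. The part of inflammation in the *Hamp* level was not tested.

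*Bmp6* (chr13:38345716-38500314), the endothelial ligand that reports iron stores to hepatocytes, had the lowest mean of the members. In tumors 2 and 3 of mouse 1 it lay above *Hamp2*. The level of *Bmp6* was 0.40, 3.45 and 3.14 TPM in mouse 1 and 1.65, 1.24 and 0.70 TPM in mouse 2, from 13.0 to 292 estimated reads. Tumors 2 and 3 of mouse 1 lay above all tumors of mouse 2, the reverse of *Hamp*, but 56.6% of all genes were arranged in this way. The log2 fold change of mouse 2 over mouse 1 was -0.34 ± 1.06 with 6 tumors (edgeR, adjusted p = 0.916) and -0.90 ± 0.33 without tumor 1 of mouse 1 (adjusted p = 0.211). The sum of the 11 endothelial markers was also highest in tumors 2 and 3 of mouse 1 and lowest in tumor 1 of mouse 1. Within mouse 2 its order differed from that of *Bmp6*. The sum was 17.7, 116 and 121 TPM in mouse 1 against 66.9, 54.9 and 63.4 TPM in mouse 2. The part of these markers in the level of *Bmp6* was not tested. Other ligands of this family behaved differently in tumor 1 of mouse 1. *Bmp2*, the second endothelial ligand for hepcidin, had 28.8 TPM there against 1.51 to 3.32 TPM elsewhere, and *Bmp4* had 165 TPM against 0.42 to 2.72 TPM.

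*Hfe*, a transferrin receptor partner whose loss causes hereditary hemochromatosis, and *Tfr2*, which senses iron-loaded transferrin on hepatocytes, were both low in tumor 1 of mouse 1. *Tfr2* (chr5:137569822-137588081) had 2.42, 124 and 131 TPM in mouse 1 and 74.1, 79.2 and 81.1 TPM in mouse 2. The tumors of mouse 2 were tightly grouped, and the lowest of the 5 other tumors was 30.6-fold above tumor 1 of mouse 1. *Hfe* (chr13:23702034-23710854) had 3.68, 43.6 and 39.7 TPM in mouse 1 and 29.1, 40.6 and 21.1 TPM in mouse 2, so that the animals overlapped also without tumor 1 of mouse 1. *Tfr2-201*, which gave 46.3% to 54.5% of the gene's TPM in the 5 other tumors, was at 0 in tumor 1 of mouse 1, where other coding transcripts of the gene took the reads. The fold change between the animals was within its error for both genes. It was 0.39 ± 1.24 for *Tfr2* and 0.59 ± 0.85 for *Hfe* on the log2 scale (edgeR, adjusted p = 0.918 and 0.813), and without tumor 1 of mouse 1 it was -0.18 ± 0.19 and 0.07 ± 0.19 (adjusted p = 0.633 and 0.883).

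The other 29 regulators of hepcidin that were listed ran from ligands to nuclear effectors. Of the 27 with a mean of at least 1 TPM, 7 were lowest and 18 were highest in that tumor, where 22.5% and 60.9% of all genes tested were lowest and highest, shares near those of the regulators. *Hjv*, the co-receptor hemojuvelin, had 2.93 TPM there and 67.6 to 99.4 TPM elsewhere. *Tmprss6*, the protease that cleaves hemojuvelin and so lowers hepcidin, had 6.60 TPM and 196 to 259 TPM. *Fgl1*, a hepatocyte protein that binds BMP ligands, had 6.04 TPM against 80.4 to 196 TPM, and *Creb3l3*, a hepatocyte transcription factor, 5.29 TPM against 86.1 to 145 TPM. These 4 thus ranged with *Tfr2* and *Hfe*. Some targets of BMP signaling were high there, with *Id1* at 217 TPM against 4.39 to 14.7 TPM and *Id3* at 434 TPM against 18.3 to 36.4 TPM. *Smad1*, which carries the BMP signal to the nucleus, had 57.9 TPM against 4.98 to 10.6 TPM, and *Neo1*, the hemojuvelin partner neogenin, had 44.9 TPM against 2.32 to 6.99 TPM. *Smad6* and *Smad7*, inhibitors that BMP signaling induces, had 6.90 and 6.82 TPM in tumor 1 of mouse 1, against 0.82 to 3.28 TPM and 1.26 to 3.73 TPM elsewhere. *Atoh8*, another such target, lay inside the range of the others, at 3.67 TPM against 2.84 to 8.67 TPM.

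Between the animals, none of the 28 regulators tested passed, with 1 higher and 3 lower in mouse 2 at an unadjusted p under 0.05 (edgeR). Those were *Id2* (higher), *Bmp4*, *Id1* and *Smad6* (lower). DESeq2 called none of them with 6 tumors and 3 without tumor 1 of mouse 1, *Bmp4*, *Hjv* and *Socs3*. It then called 1369 of all 13374 genes, 5.85% with mouse 2 higher and 4.39% with mouse 2 lower. In edgeR's test without that tumor none passed, and *Smad6* had a log2 fold change of -0.85 ± 0.26 and *Id1* of -0.69 ± 0.22 (edgeR, adjusted p = 0.152 and 0.164). *Hjv* was at 0.44 ± 0.15 (adjusted p = 0.192). The other BMP targets lay on both sides of 0 without that tumor, with log2 fold changes of 0.69 ± 0.24 for *Id2*, 0.29 ± 0.28 for *Id3*, -0.0026 ± 0.23 for *Smad7* and -0.41 ± 0.29 for *Atoh8* (edgeR, adjusted p = 0.195, 0.606, 0.997 and 0.495). *Id1* and *Smad6* had lower values in each tumor of mouse 2, the animal with more *Hamp*, than in each tumor of mouse 1, as 40.6% of all genes did. *Socs3*, which STAT3 induces, had 17.4, 7.59 and 9.52 TPM in mouse 1 and 8.92, 10.7 and 8.13 TPM in mouse 2, with overlap. *Erfe*, the erythroid hormone that lowers hepcidin, stayed at or below 0.96 TPM in every tumor.

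**Figure D2:**
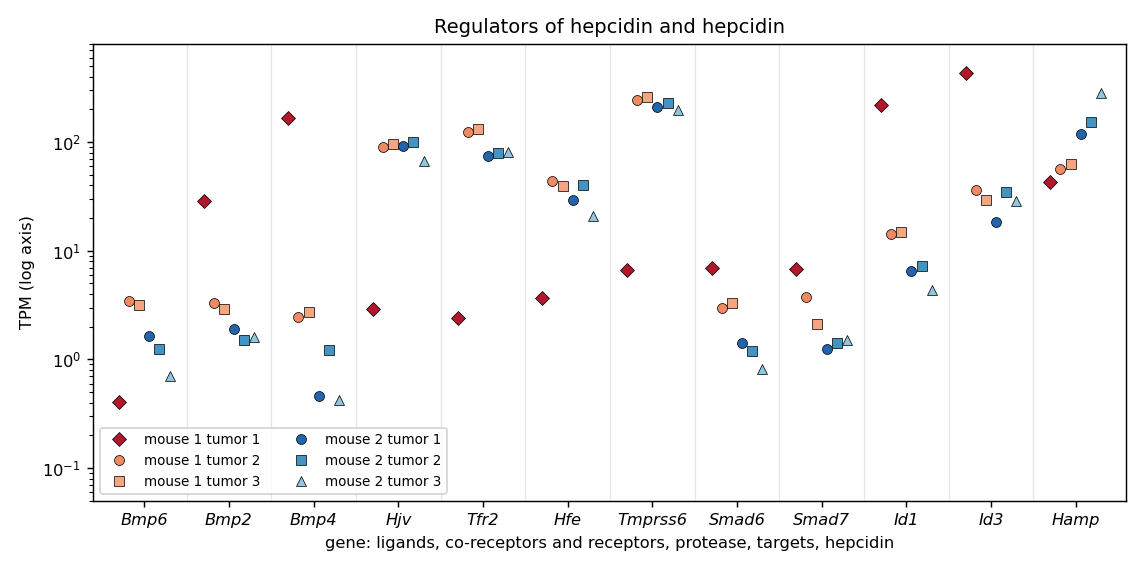
TPM (log axis) of ligands, receptors, a protease, BMP targets and *Hamp* in each of 6 tumors, 1 point per tumor. In tumor 1 of mouse 1 (diamonds), *Hjv*, *Tfr2*, *Hfe* and *Tmprss6* lie at 2.42 to 6.60 TPM and *Bmp2*, *Bmp4*, *Id1* and *Id3* at 28.8 to 434 TPM, while *Hamp* lies at 42.8 TPM, near the other tumors of its animal.

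*Trf* (chr9:103208876-103230286), the plasma carrier of iron, was among the most abundant transcripts of 5 tumors and far lower in the other. Its level was 262, 8863 and 9005 TPM in mouse 1 and 6571, 6838 and 9221 TPM in mouse 2. It ranked 14 to 20 among all genes in the 5 tumors and 397 in tumor 1 of mouse 1, where its level was 25.1-fold below the lowest of the others. Part of this RNA was not coding. *Trf-209*, a transcript of 433 bases that retains an intron, held 21.7% to 27.7% of the TPM of the gene in the 5 tumors but 1.95% to 2.82% of its reads, since TPM weighs short transcripts up. Coding transcripts alone gave 72.3% to 96.4% of the TPM, and a mean of 5168 TPM in place of 6793 TPM over 6 tumors. The log2 fold change between the animals was 0.84 ± 1.66 (edgeR, adjusted p = 0.861), and 0.28 ± 0.29 without tumor 1 of mouse 1 (adjusted p = 0.648).

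*Tfrc* (chr16:32608896-32632794), the receptor that brings transferrin into dividing and iron-poor cells, was the single member that was highest in tumor 1 of mouse 1. It had 59.6, 15.3 and 15.1 TPM in mouse 1 and 14.3, 20.3 and 6.03 TPM in mouse 2. The 3 tumors of mouse 2 lay on both sides of tumors 2 and 3 of mouse 1, and tumor 1 of mouse 1 was 2.94-fold above the highest of the others. The proliferation markers were highest in the same tumor, as were 60.9% of all genes, and their part in the level of *Tfrc* was not tested. The receptors changed places within the tumors. *Tfrc* stood at 24.6 times *Tfr2* in tumor 1 of mouse 1 and at 0.0743 to 0.256 times in the others. Part of the *Tfrc* signal came from *Tfrc-204*, which retains an intron and held 0.0% to 48.4% of the TPM of the gene, so that the coding share in tumor 3 of mouse 2 was 48.6%. The log2 fold change between the animals was -0.38 ± 0.51 with 6 tumors (edgeR, adjusted p = 0.799) and 0.13 ± 0.41 without tumor 1 of mouse 1 (adjusted p = 0.892).

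**Figure D3:**
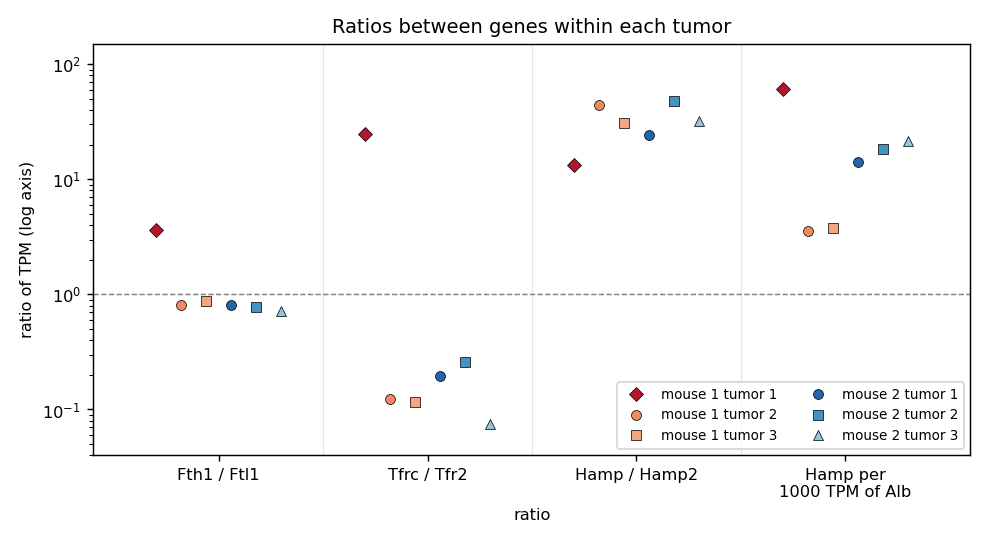
Ratios of TPM between genes inside each tumor (log axis), with a dashed line at 1. *Fth1* over *Ftl1* is 3.62 and *Tfrc* over *Tfr2* is 24.6 in tumor 1 of mouse 1 (diamonds), and both are under 1 in the other 5 tumors, while *Hamp* per 1000 TPM of *Alb* is 61.0 there and 3.55 to 21.4 in the others.

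The iron-responsive elements of the members are printed here because they mark the 4 genes whose messages the iron regulatory proteins bind. They were found in GENCODE vM39 transcripts as a loop CAGTGN after a bulged C and 5 bases that pair across the loop, outside the coding part. Only 1 coding transcript per gene was searched, that with the highest mean TPM. Some of these differ in length from the quantified transcript of the same name, so positions refer to GENCODE vM39. Each line gives 30 bases from 5′ to 3′ with the 6 bases of the loop in capitals.
Fth1: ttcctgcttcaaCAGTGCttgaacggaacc
Ftl1: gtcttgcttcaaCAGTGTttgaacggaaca
Slc40a1: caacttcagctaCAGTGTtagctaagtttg
Tfrc element 1: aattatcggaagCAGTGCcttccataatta
Tfrc element 2: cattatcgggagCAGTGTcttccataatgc
Tfrc element 3: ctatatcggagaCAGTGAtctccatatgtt
Tfrc element 4: aattatcgggaaCAGTGTttcccataattt
The elements of *Fth1*, *Ftl1* and *Slc40a1* lie before the coding part, at bases 93 to 109 of *Fth1-201*, 84 to 100 of *Ftl1-201* and 172 to 188 of *Slc40a1-201*. The 4 elements of *Tfrc* lie after it, at bases 3326 to 3833 of *Tfrc-201*. A match occurred in 110 of 21270 coding genes (0.517%), and *Tfrc* was the single gene with 3 or more. Of the 91 other pathway genes, *Alas2*, the erythroid enzyme that starts heme synthesis, held a match.

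The ferritin subunits, which form the shell that stores iron, varied little over 5 tumors and separated in tumor 1 of mouse 1. *Fth1* (chr19:9980600-9985111), the heavy subunit that oxidizes iron, had 5469.6, 7146 and 7387 TPM in mouse 1 and 5338, 8401 and 5161 TPM in mouse 2. Tumor 1 of mouse 1 lay inside the range of the others, and the highest tumor was 1.63-fold above the lowest. *Ftl1* (chr7:45457944-45459886), the light subunit that helps lay iron down, had 1510.2, 8763 and 8465 TPM in mouse 1 and 6630.1, 10828 and 7251 TPM in mouse 2. Here tumor 1 of mouse 1 lay 4.39-fold below the lowest of the others. *Fth1* was at 3.62 times *Ftl1* in tumor 1 of mouse 1 and at 0.712 to 0.873 times in the others. *Fth1* and *Ftl1* have many pseudogene copies, and reads shared with them leave their levels uncertain. The one copy compared, *Ftl1-ps1*, had 0.654% to 1.23% of the TPM of *Ftl1*. *Fth1-209*, a coding transcript of 592 bases, held 7.27% to 19.2% of the TPM of *Fth1*. Between the animals the log2 fold changes were 0.63 ± 0.81 for *Fth1* and 1.00 ± 1.16 for *Ftl1* (edgeR, adjusted p = 0.794 and 0.768), and 0.37 ± 0.22 and 0.50 ± 0.23 without tumor 1 of mouse 1 (adjusted p = 0.416 and 0.30).

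*Slc40a1* (chr1:45908070-45926532), the only known cellular iron exporter and the target of hepcidin, had 3.56, 84.7 and 84.9 TPM in mouse 1 and 53.8, 71.4 and 32.0 TPM in mouse 2. Tumors 2 and 3 of mouse 1 (84.8 ± 0.16 TPM, SD, n = 2) lay above all tumors of mouse 2, an arrangement that 56.6% of genes shared. The lowest of the 5 other tumors was 9.01-fold above tumor 1 of mouse 1. *Slc40a1-201* held 96.3% to 99.5% of the TPM of the gene. The fold change was 0.34 ± 1.08 on the log2 scale with 6 tumors (edgeR, adjusted p = 0.919) and -0.23 ± 0.24 without tumor 1 of mouse 1 (adjusted p = 0.649). Liver macrophages export the iron of red cells through ferroportin, and the sum of the macrophage markers moved with *Slc40a1*. Their 11 genes summed to 67.6, 700.3 and 726 TPM in mouse 1 and to 285, 577 and 183 TPM in mouse 2. This sum puts the 6 tumors in the same order as *Slc40a1* does, with tumors 2 and 3 of mouse 1 nearly equal in *Slc40a1*. The median of these genes gave another order. It was 2.49, 33.1 and 32.0 TPM in mouse 1 and 19.9, 34.6 and 15.6 TPM in mouse 2. *C1qb*, the highest of these markers, was measured at 22.2 to 165 TPM, and *Slc40a1* at 0.160 to 0.947 times that level. The part of macrophages in the level of *Slc40a1* was not tested.

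**Figure D4:**
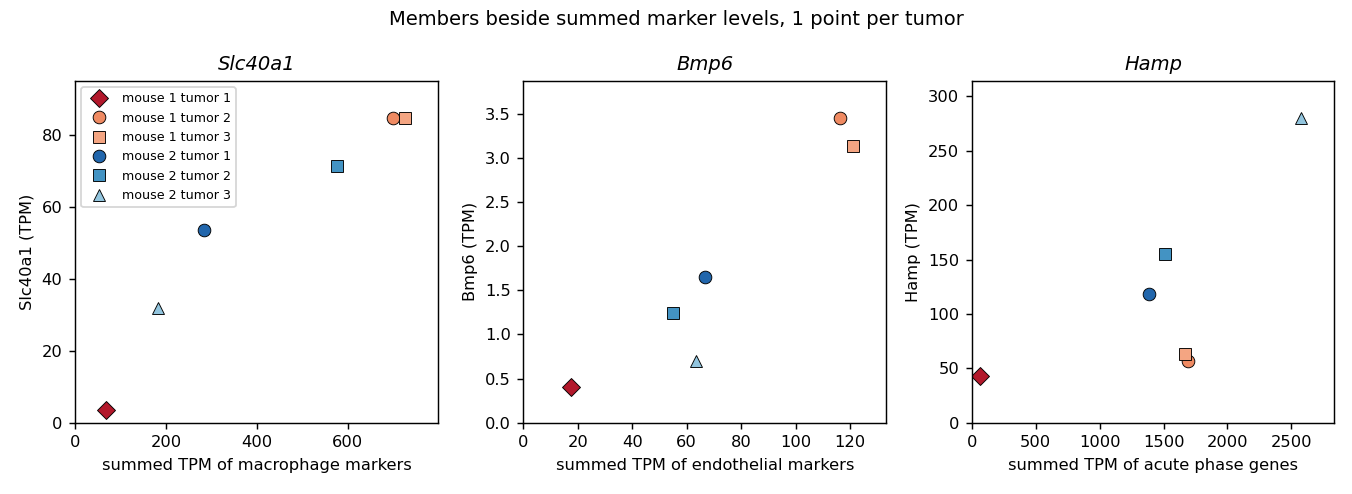
Level of *Slc40a1*, *Bmp6* and *Hamp* (TPM) against the summed TPM of macrophage markers, endothelial markers and acute phase genes, 1 point per tumor, all axes from 0. The 6 tumors have the same order for *Slc40a1* and the macrophage sum, while the median of those markers orders them otherwise. Tumors 2 and 3 of mouse 1 are highest for *Bmp6* and the endothelial markers. Tumor 3 of mouse 2 is highest for *Hamp* and the acute phase genes. Tumors 1 and 2 of mouse 2 lie above tumors 2 and 3 of mouse 1 for *Hamp* and below them for the acute phase genes.

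Across the 10 members, edgeR called no difference between the animals. In its test none of the 13268 genes passed with 6 tumors (percent called 0.0 in each direction), while 1449 genes and 2 members, *Hamp* and *Hamp2*, had an unadjusted p under 0.05. DESeq2 called 202 genes and 1 member, *Hamp*, on the same counts, and limma-voom called 0 genes, with 708 at an unadjusted p under 0.05. Without tumor 1 of mouse 1, edgeR called no member (0.419% of all genes passed with mouse 2 higher, and 0.837% with mouse 2 lower), and 3 members, *Hamp*, *Hamp2* and *Bmp6*, had an unadjusted p under 0.05. The median log2 fold change of the members was 0.61 with 6 tumors and 0.20 without tumor 1 of mouse 1, where that of all genes was -0.04 and 0.01. Tumors of an animal share that animal, so these p-values measure the spread between tumors and compare 2 individual mice.

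**Figure D5:**
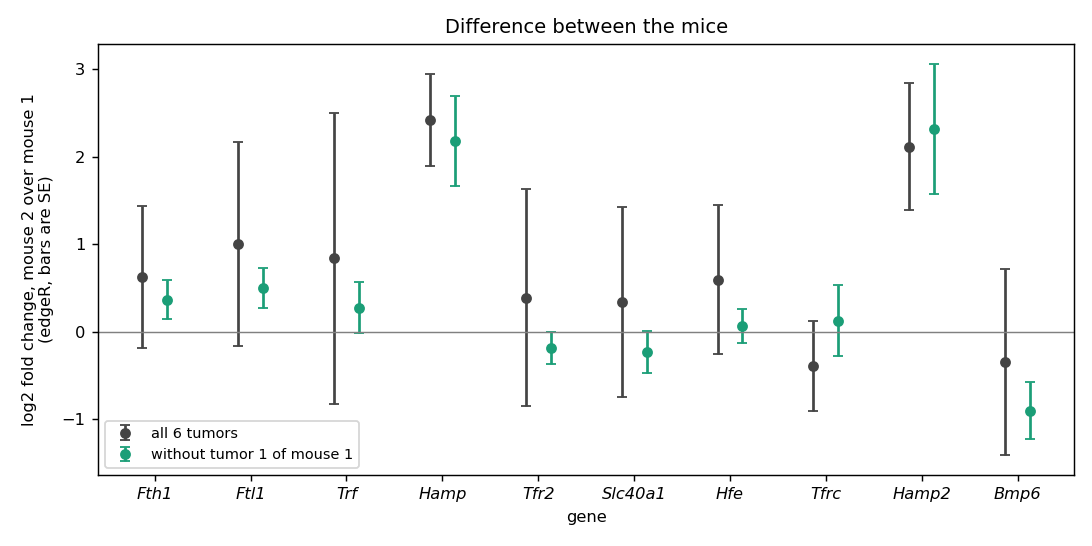
Log2 fold change of mouse 2 over mouse 1 by edgeR for the 10 genes, with bars of 1 SE, for all 6 tumors (gray) and without tumor 1 of mouse 1 (green). *Hamp* and *Hamp2* lie between 2.12 and 2.42 in both fits. The bars of *Trf*, *Ftl1*, *Fth1*, *Tfr2*, *Slc40a1*, *Hfe* and *Bmp6* shorten without tumor 1 of mouse 1, and that of *Tfrc* does so less.

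The widest spread among the members came from tumor 1 of mouse 1. There 7 of 10 members were at their lowest and 1 was at its highest, against 22.5% and 60.9% of all genes tested. *Tfr2*, *Trf*, *Slc40a1*, *Hfe* and *Ftl1* lay at least 4-fold under the lowest of the other tumors, as did 10.2% of genes. *Hamp*, *Hamp2*, *Tfrc*, *Fth1* and *Bmp6* did not. The highest of the other 5 tumors exceeded the lowest 1.40-fold for *Trf*, 1.63-fold for *Fth1* and *Ftl1*, 1.76-fold for *Tfr2*, 2.06-fold for *Hfe* and 2.65-fold for *Slc40a1*. It did so 3.36-fold for *Tfrc*, 4.91-fold for *Hamp* and *Bmp6* and 6.81-fold for *Hamp2*, whose counts were small. The hepcidin genes were thus among the most variable members over these 5 tumors.

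By the root mean square difference of centered log2(TPM + 1) over the 6 tumors, tumor 1 of mouse 1 included, among 7769 genes, the genes most like *Hamp* were *Gas2* (0.229), *Fkbp11* (0.288) and *Arsg* (0.394). Those most like *Slc40a1* were *Mvp* (0.0967), *Gstm1* (0.107) and *Alpl* (0.142), and those most like *Tfrc* were *Arl2* (0.121), *Cyrib* (0.136) and *Fkbp14* (0.143). *Hamp2* was nearest to *Atp5f1e* (0.232), *Rdh5* (0.253) and *H2ac19* (0.261).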

How the data were processed

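Poly A RNAseq values of 6 excised liver tumors, 3 from each of 2 CMRtdT mice, were used. The authors' deposited estimated counts are numbers of fragments assigned to each Ensembl mouse transcript, need not be whole and carry no normalization. The authors' deposited TPM values scale these counts for effective transcript length and depth. The tables have the layout of Salmon. GRCm38, BWA and Picard appear in the submitters' processing notes, while the release of the transcript index was not given in the sources consulted.

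Identifiers were matched to GENCODE vM39 for gene names (114813 matched, 1733 not), and both values were summed per gene. Positions and promoter windows came from RefSeq on GRCm38.p6. Rounded gene counts of the 2 animals were compared with edgeR 4.0.16 (quasi-likelihood test, TMM scaling, filterByExpr, two-sided, Benjamini-Hochberg over 13268 genes, threshold 0.05), with DESeq2 1.42.0 and with limma-voom (limma 3.58.1). The totals bound the precision of low members: a count of 0 allows up to 3 counts, for counting error alone. Levels of neighboring genes were compared by an exact sign-flip permutation test on log2(TPM + 0.1). A tumor that stood apart was marked by Dixon's ratio of gap to range, taken on log2(TPM + 1). The scripts were tested on simulated data. Alternatives were another tool, scaling or filter, tumor number as a block, coding transcripts alone, mitochondrial genes left out, a pseudocount of 1, and each tumor left out in turn. Fits without tumor 1 of mouse 1 by other tools or scalings were added after the data were seen. Software was R 4.3.3 and Python 3.11.15 with matplotlib 3.10.9, scipy 1.17.1, pandas 2.3.3 and numpy 2.4.6.

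The members, the 6 lists of other pathway genes and the 7 lists of markers were chosen with earlier results of these data known. The rule for named genes took the members, of each pathway list the 3 genes with the highest mean TPM, the 2 with the smallest p and those of at least 5 TPM that ranged at least 8-fold, the 3 genes nearest in pattern to 4 members, and the 2 highest markers of each list. One gene that falls under this rule is not reported here. *Socs3*, *Erfe*, *Smad7*, *Atoh8*, *Crp*, *Saa1*, *Il6*, *Id2*, *Slc39a14*, *Glrx5* and *Hmox1* were named after their values were seen, for their role or their p. One marker, *Ahsp*, has no value in the tables used here.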

Additional observations from a re-analysis of the deposited data

Results flagged for a closer look

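Tumor 1 of mouse 1 lay farther from the nearest of the other 5 tumors, relative to the whole range of log2(TPM + 1), than Dixon's 95% critical value for 5 of the 10 members, always on the low side. The levels in that tumor were 2.42 TPM for *Tfr2*, 262 TPM for *Trf*, 3.56 TPM for *Slc40a1*, 1510.2 TPM for *Ftl1* and 3.68 TPM for *Hfe*. The ratio of gap to range was 0.846, 0.905, 0.675, 0.751 and 0.689 in this order. Chance marks about 5% of groups by this rule, and the 5 values come from 1 library, so they are not 5 separate observations. The hepatocyte markers summed to 1396 TPM in that tumor against 27014 to 42256 TPM elsewhere, and their part in the low values was not tested.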

How the results depend on the processing

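Tumor 1 of mouse 1 decided most values. Genes called between the animals numbered 0 to 168 over the fits that left out each tumor in turn, with 168 without tumor 1 of mouse 1, where DESeq2 called 1369, limma-voom 477, library size alone 151 and counts without mitochondrial genes 165. With 6 tumors DESeq2 called 202. Members called were 0 in each fit by edgeR or limma-voom and 1 (*Hamp*) by DESeq2 with and without that tumor. Other pathway genes called were 0 by edgeR, 1 (*Isca2*) by DESeq2 with 6 tumors and by limma-voom without that tumor, and 9 by DESeq2 without it. *Hamp* and *Hamp2* kept mouse 2 higher in 15 of 15 alternatives each, but leaving out each tumor in turn gave 1.81 to 2.70 and 1.48 to 2.47, both lowest without tumor 3 of mouse 2. TMM put the median log2 fold change of all genes at -0.04, and library size alone at -0.55. Without tumor 1 of mouse 1, by DESeq2, limma-voom and without mitochondrial genes in this order, the log2 fold change was 0.12, 0.0114 and 0.13 for *Tfrc*, -0.18, -0.19 and -0.18 for *Tfr2*, and -0.23, -0.26 and -0.22 for *Slc40a1*. With library size alone it was -0.45 for *Tfr2*, -0.46 for *Slc40a1*, -0.0095 for *Trf* and -0.17 for *Hfe*. Leaving out each tumor in turn gave -0.69 to 0.13 for *Tfrc*, -0.18 to 0.85 for *Tfr2*, -0.23 to 0.74 for *Slc40a1* and -0.90 to 0.0879 for *Bmp6*. *Bmp6* was at 0.95 by limma-voom and turned without tumors 2 or 3 of mouse 1 (0.0879 and 0.0069). Beyond the choice of tumors, the cause of these turns was not tested. The tumor numbers do not pair the samples (correlations of deviations 0.025, -0.043 and 0.049 for the same number), and with tumor number as a replicate block 0 genes were called and *Bmp6* was at 0.16. No neighbor pair in the order of levels passed with a pseudocount of 1 or coding transcripts alone, and with 5 tumors none could.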

Other observations

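Carriers of heme and hemoglobin made by hepatocytes ran with *Trf*. *Hp* (haptoglobin, which binds free hemoglobin) was at 103 TPM in tumor 1 of mouse 1, against 1399 to 3127 TPM elsewhere, and *Hpx* (hemopexin, which binds heme) had 61.9 TPM and 1348 to 2515 TPM. *Cp*, the ferroxidase ceruloplasmin that loads exported iron onto transferrin, had 28.1 TPM and 254 to 406 TPM. *Lcn2*, a siderophore-binding acute phase protein, had 5.0 TPM and 88.5 to 155 TPM, and *Steap4*, a metal reductase, 2.92 TPM and 55.7 to 85.3 TPM. Of the 13 uptake genes that averaged 1 TPM or more, 8 were lowest and 3 highest in that tumor, where 22.5% and 60.9% of all genes tested were. *Slc39a14*, an importer of iron that is not bound to transferrin, had 7.09, 14.1 and 18.98 TPM in mouse 1 and 19.3, 16.5 and 36.4 TPM in mouse 2, with its highest level in the tumor with the most *Hamp* (log2 fold change 1.42 ± 0.55, edgeR, adjusted p = 0.442).

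Of 15 genes of heme synthesis and breakdown, 9 were at their lowest and 4 at their highest in the same tumor, beside the 22.5% and 60.9% of all genes. *Alas1*, the enzyme that starts heme synthesis in hepatocytes, had 30.2 TPM there against 355 to 494 TPM elsewhere, *Alad* had 26.8 TPM and 121 to 228 TPM, and *Blvrb*, a biliverdin reductase, 54.0 TPM and 561 to 1005 TPM. *Alas2*, the erythroid form, had 4.02, 79.7 and 78.8 TPM in mouse 1 and 45.7, 37.3 and 54.3 TPM in mouse 2. The erythroid markers, which report blood in the tissue, summed to 1575, 10999 and 10449 TPM in mouse 1 and to 1906, 985 and 4518 TPM in mouse 2, and their part in *Alas2* was not tested. *Hmox1*, which breaks heme down, ranged from 36.1 to 104 TPM in 5 tumors and was at 27.6 TPM in tumor 1 of mouse 1.

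The genes of intracellular iron handling spread less. Of the 8 storage and regulatory genes that averaged 1 TPM or more, 1 was lowest and 6 were highest in tumor 1 of mouse 1. *Pcbp2* and *Pcbp1*, which hand iron to ferritin, had 268 to 469 TPM and 66.3 to 155 TPM. *Aco1*, the iron regulatory protein that doubles as aconitase, had 23.0, 83.2 and 91.3 TPM in mouse 1 and 36.1, 51.1 and 39.6 TPM in mouse 2. *Ncoa4*, the receptor that sends ferritin to lysosomes, had 30.9 to 52.4 TPM, with no tumor apart. Among 16 genes of mitochondrial iron and iron-sulfur clusters, 5 were lowest and 5 highest in tumor 1 of mouse 1, beside 22.5% and 60.9% of all genes. *Isca2*, an assembly factor of these clusters, had 58.3, 38.4 and 37.1 TPM in mouse 1 and 47.0, 59.4 and 43.6 TPM in mouse 2, with a log2 fold change of 0.84 ± 0.21 with 6 tumors (edgeR, adjusted p = 0.412) and of 0.93 ± 0.14 without tumor 1 of mouse 1 (adjusted p = 0.0511). *Glrx5*, a glutaredoxin of cluster assembly, had a log2 fold change of 0.76 ± 0.19 without that tumor (edgeR, adjusted p = 0.112). None of the genes of the 6 lists passed edgeR's test in either fit, with 5 higher and 5 lower in mouse 2 at an unadjusted p under 0.05 with 6 tumors, where 1449 of 13268 genes were under it. Without tumor 1 of mouse 1 these were 15 higher and 5 lower, beside 2676 of 13374 genes.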
